A study of Mus musculus with 20 samples.

Results

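The data compared whole plantaris muscle with and without satellite cells after 7 days of mechanical overload (MOV). The comparison rests on 4 of the 20 arrays of the series, 2 from satellite cell-depleted (SC-) and 2 from satellite cell-replete (SC+) muscle, and on the 19572 of 28846 probe sets that carry exactly 1 gene symbol. These probe sets gave 19505 genes. All mice were females of 5 months with the genotype Pax7CreER/+; Rosa26DTA/+, in which tamoxifen switches on a diphtheria toxin chain in cells that use the *Pax7* promoter. SC- mice had received tamoxifen and SC+ mice vehicle before the operation, so the groups carry the same alleles and differ by the agent. No group had tamoxifen without depletion, and depletion and tamoxifen therefore cannot be told apart. MOV was produced by removing the soleus and part of the gastrocnemius on both sides, and sham mice were operated on without this removal. Each array was hybridised with RNA pooled from 2 or 3 mice, so the spread between the arrays of a group is a spread between pools. The other 16 arrays (sham, and MOV for 1, 3 and 5 days, 2 arrays for each treatment) were used to estimate the error and to show what the day 7 genes did elsewhere.

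Satellite cells are the stem cells of skeletal muscle. They lie between the fibre and its basement membrane, rest until the muscle is loaded or injured, then divide as myoblasts and fuse with the fibre to add nuclei. Myoblasts enter differentiation under the transcription factors of the MyoD family, fuse through the membrane proteins myomaker and myomixer, and the young fibres they form use embryonic and cardiac versions of the contractile proteins before the adult ones. Overload also brings neutrophils and macrophages into the muscle and makes its connective tissue cells lay down matrix.

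Values are log2 RMA levels, differences are SC- minus SC+ in log2 units with the standard error (SE) of the fit across all 20 arrays, and n was 2 arrays a group throughout. A gene was called at an unadjusted p under 0.05 in limma's moderated test, so that a called gene can have an adjusted p over the threshold. The p adjusted by Benjamini-Hochberg over the 19505 genes is given beside many single genes. Where it is not given, the gene missed that threshold unless it is said to have passed adjustment or to be among the genes that did. A difference that follows a pool left out is the value fitted without that pool. Within each group the 2 day 7 arrays correlated at r = 0.989 over all genes, against 0.979 to 0.987 between the groups. The tissue was muscle by its transcripts, since the mean level of 16 mature fast fibre genes was 16.79 to 17.83 on the 4 arrays. *Pax7* itself was near background, with 4.53 and 4.34 in SC- and 4.77 and 4.81 in SC+. Both SC- arrays lay under both SC+ arrays, but the difference of -0.36 ± 0.28 did not pass (adjusted p = 0.675), so the array level of this gene gave only a weak check of the depletion. Replicate 2 of SC+ sham stood apart from replicate 1, with a level of *Myh3* of 13.62 against 7.46 and a mean level of the macrophage markers of 8.70 against 6.70. Counts and departures that use the sham arrays are therefore given with and without it, while levels of single genes against sham use both arrays unless stated.

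At day 7, 1209 genes (6.2% of those tested) were higher and 1152 (5.91%) lower in SC- than in SC+ muscle at an unadjusted p under 0.05, where chance alone gives about 975 in both directions together. After adjustment 56 genes (0.287%) passed, 13 higher and 43 lower. Counted by the arrays alone, both SC- arrays were above both SC+ arrays for 22.4% of genes and below both for 23%. The median difference over all genes was -0.0059. Counts of called list members below are to be read against the shares of 6.2% and 5.91%. In a short list 1 or 2 calls lie near those shares. Single pools mattered. Without SC- replicate 1 there were 699 genes higher and 746 lower, and without SC+ replicate 1, 634 and 728. The adjusted count was 9 without SC- replicate 1, 11 without SC- replicate 2 and 1 without SC+ replicate 1.

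**Figure D1:**
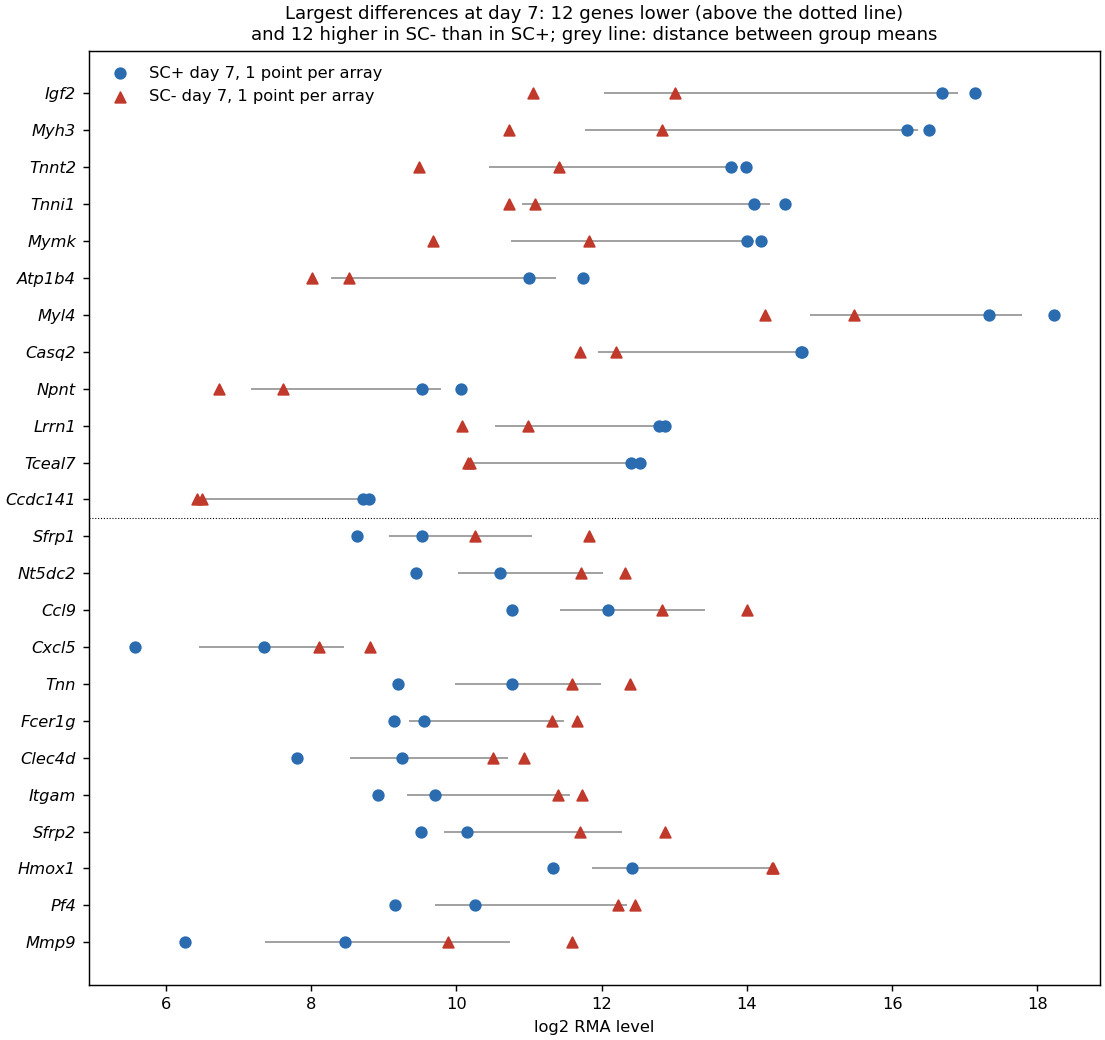
Log2 RMA level on each of the 4 day 7 arrays for the 12 genes with the largest negative and the 12 with the largest positive difference among called genes whose groups did not overlap; points are arrays and the grey line joins the group means. The largest negative difference was -4.88 (*Igf2*) and the largest positive one 3.37 (*Mmp9*).

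Genes of the satellite cell and of the differentiating myoblast were lower in SC- muscle. Of 12 satellite cell markers 7 were lower and none higher, with a median of -0.64, and of 15 genes of myogenic regulation and fusion 9 were lower and none higher, with a median of -0.57. *Myf5*, a transcription factor of satellite cells and early myoblasts, read 4.20 and 3.49 in SC- and 5.59 and 5.35 in SC+. Its difference was -1.62 ± 0.32 (adjusted p = 0.0317), and all of these levels were in the dim part of the scale. *Cdh15*, which encodes the adhesion protein M-cadherin, read 6.28 and 6.04 in SC- and 7.44 and 7.38 in SC+. The SC- arrays were again both lower, by -1.26 ± 0.25 (adjusted p = 0.0377). *Fgfr4*, a growth factor receptor of myoblasts, and *Chodl*, a membrane lectin, differed by -1.08 and -1.21. At MOV day 5 the difference of *Chodl* had been 0.03, and the change between the days was -1.25 (called, adjusted p = 1). The other called markers, *Megf10*, *Spry1* and *Itga7*, differed by -0.86, -0.65 and -0.64. Of the 12 markers 5, *Pax7* among them, had a mean under 6 over all arrays, where arrays show mostly background.

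*Myog*, the transcription factor that starts terminal differentiation, read 8.73 and 7.38 in SC- and 10.47 and 10.18 in SC+. Both SC- pools were under both SC+ pools, and the level in SC+ was 4.83-fold that in SC- (difference -2.27 ± 0.42, adjusted p = 0.0246). *Mymk*, which encodes myomaker, read 11.82 and 9.68 in SC- and 14.19 and 14.00 in SC+, a difference of -3.34 ± 1.11 (adjusted p = 0.203). In SC+ muscle *Mymk* had been at 5.31 and 5.15 on day 1, 12.23 and 11.33 on day 3 and 12.93 and 13.28 on day 5. In SC- muscle the same days gave 6.24 and 4.98, 6.71 and 7.27 and 9.29 and 9.04. The gene was thus measured well above its day 1 level in SC- muscle too, but later and at a lower level. *Mymx*, the partner of myomaker in fusion, read 6.08 and 6.20 in SC- and 7.40 and 7.71 in SC+ and differed by -1.42 ± 0.38 (adjusted p = 0.111). Among the later regulators *Mef2c* differed by -1.06 and *Myf6*, which mature fibres also use, by -1.25. Without SC- replicate 2 the calls of *Mymk* (-2.27), *Myf6* (-0.81), *Megf10* (-0.52), *Spry1* (-0.44) and *Itga7* (-0.54) were lost, and 4 of the 12 markers and 5 of the 15 myogenic genes were called. Without SC+ replicate 1, 5 of the 15 were called, and *Myf6* (-0.83), *Megf10* (-0.62) and *Spry1* (-0.45) were not; *Itga7* was also lost without SC- replicate 1 (-0.74) or SC+ replicate 2 (-0.47).

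Embryonic and cardiac contractile genes, which young fibres use, held several of the largest differences. Of 13 measured, 7 were lower in SC- muscle and none higher, with a median of -0.84. The median was -1.29 without SC- replicate 1. *Myh3*, the embryonic myosin heavy chain, read 12.83 and 10.72 in SC- and 16.51 and 16.21 in SC+, so that SC+ had 24.0-fold the SC- level (-4.58 ± 1.20, adjusted p = 0.104). The SC- pools differed from each other by more than the SC+ pools did, yet both lay under them. *Myl4*, the embryonic and atrial light chain, read 15.48 and 14.25 in SC- and 18.22 and 17.34 in SC+ (-2.92 ± 0.50, adjusted p = 0.0164). *Tnnt2*, cardiac troponin T, read 11.41 and 9.48 in SC- and 13.78 and 13.99 in SC+ and differed by -3.44 ± 0.83 (adjusted p = 0.0782). *Actc1*, cardiac alpha-actin, read 11.49 and 10.16 in SC- and 12.78 and 12.81 in SC+ and differed by -1.97 ± 0.40 (adjusted p = 0.0463), or by -1.31 (called) without SC- replicate 2. The alkali light chain gene *Myl6b* differed by -1.77, while *Xirp1* (-1.14), an actin-binding protein of loaded and injured muscle, lost its call without SC- replicate 2 (-0.81) or SC+ replicate 1 (-0.56) and differed by -1.72 (called) without SC+ replicate 2. The neonatal heavy chain gene *Myh8* read 19.90 to 19.93 on the 4 arrays, at the top of the scale, where a difference could not show.

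The same genes were also set against sham muscle. From sham to day 7 the SC+ level of *Myh3* differed by 5.82 and the SC- level by 3.76. SC- and SC+ already differed by -2.52 in sham muscle, a value set by SC+ sham replicate 2, since without it the sham difference was 0.56 (not called) and the day 7 difference departed from the sham one by -5.14 (called), against -2.06 (not called, adjusted p = 0.751) with it. For *Myl4* the departure from sham was -2.01 (called, adjusted p = 0.38) with that array and -3.04 (called) without it.

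**Figure D2:**
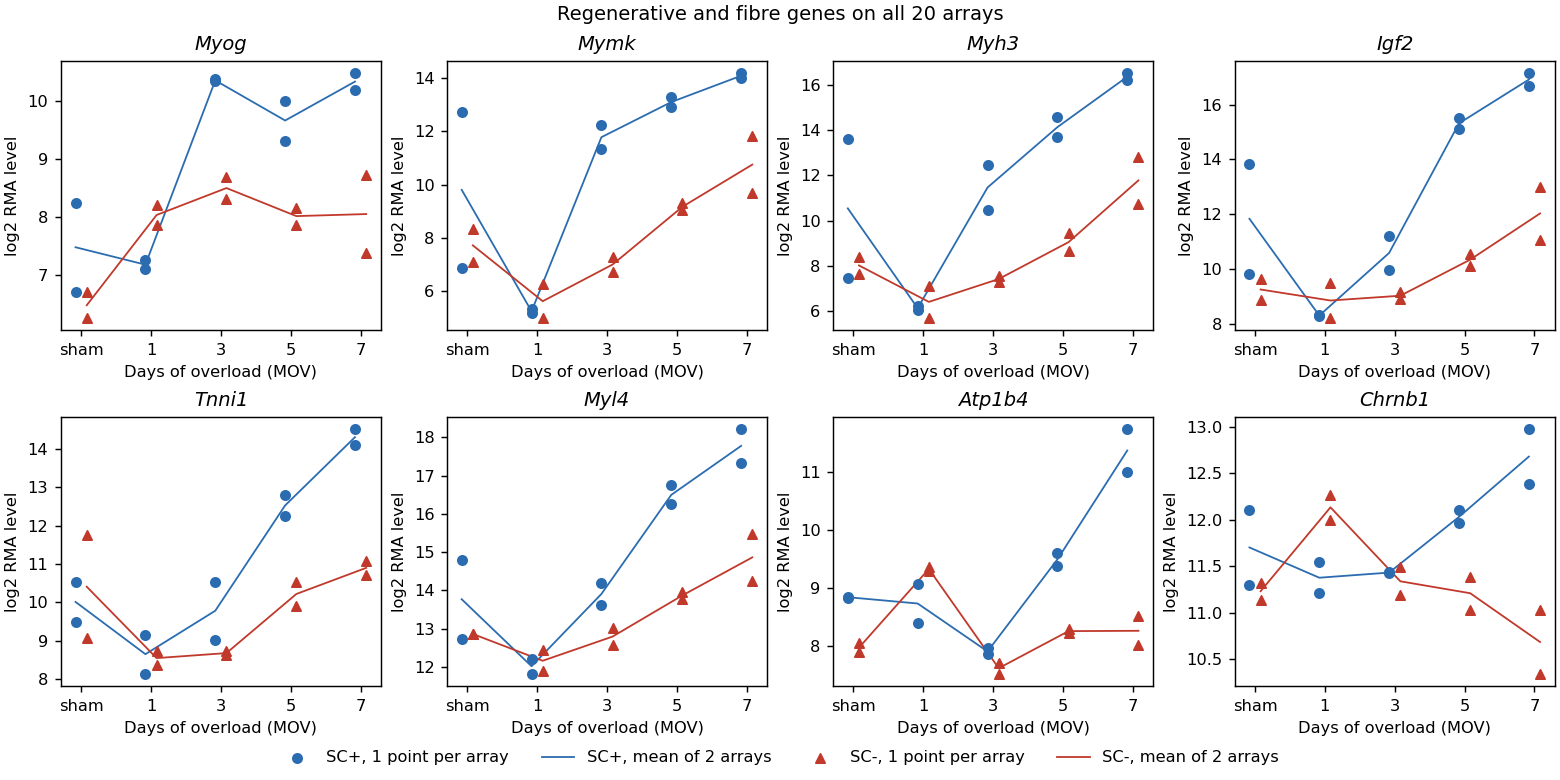
Log2 RMA level on all 20 arrays against days of MOV for 8 genes of regeneration and of the fibre; points are single arrays, lines join the group means, and colours separate SC- from SC+. At day 7 both SC- arrays lie under both SC+ arrays in every panel, and *Mymk* on the SC+ sham arrays stands at 6.87 and 12.74.

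*Igf2*, the fetal insulin-like growth factor, showed the largest difference among the called genes whose groups did not overlap, with 13.01 and 11.05 in SC- and 17.14 and 16.68 in SC+. The difference of -4.88 ± 0.84 (adjusted p = 0.0164) makes the SC+ level 29.5-fold the SC- one. At day 5 it had been -4.97, and in sham muscle it was -2.58, or -0.58 (not called) without SC+ sham replicate 2. *Igf2* is imprinted, that is, read from one parental copy. Of 9 imprinted growth genes measured 3 were lower and none higher: *Igf2*, *Peg3*, a zinc finger protein, and *Cdkn1c*, the cyclin-dependent kinase inhibitor p57. The list's median of -0.50 lay between -0.04 and -0.88 with 1 day 7 array left out. *Peg3* read 8.43 and 7.70 in SC- and 10.23 and 9.65 in SC+ (-1.88 ± 0.37, adjusted p = 0.0317), and *Cdkn1c* read 5.80 and 6.09 in SC- and 6.83 and 7.00 in SC+ (-0.97 ± 0.26, adjusted p = 0.113). *Zdbf2* and *Zim1*, also imprinted and named after their values were seen, passed adjustment, the first at 5.01 and 4.12 in SC- and 7.38 and 6.73 in SC+ (-2.49 ± 0.45) and the second, the neighbour of *Peg3*, at 5.77 and 5.21 in SC- and 7.87 and 6.74 in SC+ (-1.82 ± 0.35). *Igf1*, the growth factor whose receptor IGF-II also uses, was at 17.53 to 18.15 on the 4 arrays and its difference of 0.43 ± 0.69 did not pass. In the IGF axis list of 12 genes the 1 call was *Irs1*, the adaptor of the insulin and IGF-1 receptors, which read 7.14 and 7.14 in SC- and 8.43 and 8.11 in SC+ (-1.13 ± 0.34, adjusted p = 0.156).

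Slow fibre genes were lower in SC- muscle in part. Of 13, 6 were lower and none higher, with a median of -0.79. Without SC- replicate 1, 4 were lower and the median was -0.48. *Tnni1*, slow troponin I, read 11.08 and 10.72 in SC- and 14.53 and 14.10 in SC+, a 10.7-fold lower level in SC- (-3.42 ± 0.62, adjusted p = 0.0219). In SC+ muscle it stood 4.31 above sham at day 7 and in SC- muscle 0.49, and the day 7 difference departed from the sham difference by -3.81 (called, adjusted p = 0.224), or -4.34 (called) without SC+ sham replicate 2. *Tnnt1*, slow troponin T, read 12.33 and 12.39 in SC- and 14.73 and 14.43 in SC+ (-2.22 ± 0.52). *Casq2*, the calcium store protein of slow and cardiac muscle, read 11.71 and 12.20 in SC- and 14.75 and 14.76 in SC+ (-2.80 ± 0.71, adjusted p = 0.0956). *Tnnc1* and *Atp2a2*, slow troponin C and the slow calcium pump, differed by -1.38 and -1.36. The slow heavy chain and ventricular light chain genes gave overlapping groups instead: *Myh7* read 10.23 and 11.33 in SC- and 10.92 and 11.26 in SC+, and *Myl2* read 12.38 and 15.08 in SC- and 14.11 and 14.93 in SC+, with a difference of -2.13 (called) without the high SC- replicate 2. The calls of *Tnnc1* (-1.10 without SC- replicate 1) and *Atp2a2* (-1.003 without SC- replicate 2, -1.17 without SC+ replicate 1) depended on 1 pool.

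Among 16 genes of the mature fast fibre 8 were lower in SC- muscle and none higher, with a median of -0.78. The 8 that did not pass held the fast heavy chain genes *Myh1* (-0.42), *Myh2* (-0.27) and *Myh4* (-0.19). They also held *Acta1* (0), *Mylpf* (-0.18) and *Atp2a1* (-0.04), all named after their values were seen. In sham muscle *Myh4*, *Acta1* and *Atp2a1* each differed by 0.0016, the same value as *Myh8*, which lay at the top of the scale at day 7. The highest values on the day 7 arrays were 19.93 and 19.92 in SC- and the same in SC+. A gene at that level cannot show a difference, so the small values of these genes do not show unchanged levels. *Casq1*, the fast calcium store protein, read 17.50 and 18.09 in SC- and 19.001 and 18.83 in SC+ (-1.12 ± 0.29, adjusted p = 0.0945). *Ryr1*, the calcium release channel, read 13.50 and 14.46 in SC- and 15.30 and 14.99 in SC+ (-1.16 ± 0.32), and *Tnnc2*, fast troponin C, read 15.56 and 16.67 in SC- and 17.34 and 17.30 in SC+ (-1.21 ± 0.36). *Pvalb*, the calcium buffer parvalbumin, and *Ckm*, muscle creatine kinase, differed by -1.16 and -1.02. For each of these the lowest array was SC- replicate 1. Without it 3 of the 16 were called, with a median of -0.30, against 11 and -1.27 without SC- replicate 2, and *Ryr1* (-0.68), *Tnnc2* (-0.65), *Pvalb* (-0.72) and *Ckm* (-0.48) were not; *Pvalb* was also lost without SC+ replicate 1 (-0.97). *Ckm* differed by -1.55 (called) without SC- replicate 2.

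The subunits of the muscle acetylcholine receptor, which receives the signal of the motor nerve, were lower together. Of 13 genes of the receptor and of denervation 6 were lower in SC- and none higher, with a median of -0.91, and the 6 comprised all 5 subunits and the esterase. *Chrnb1*, the beta subunit, read 10.35 and 11.03 in SC- and 12.97 and 12.38 in SC+. Its difference of -1.99 ± 0.30 (adjusted p = 0.0109) was set beside that of day 5, from which it departed by -1.17 (called, adjusted p = 1). *Chrng*, the embryonic gamma subunit, read 6.10 and 4.26 in SC- and 7.14 and 6.85 in SC+ (-1.82 ± 0.50, adjusted p = 0.124), so the SC- pools were far apart. *Chrna1*, the alpha subunit, read 9.61 and 8.43 in SC- and 10.61 and 10.45 in SC+ (-1.51 ± 0.61). *Chrnd* and *Chrne*, the delta and adult epsilon subunits, differed by -1.20 and -0.71. *Ache*, the esterase that clears acetylcholine, read 6.65 and 6.87 in SC- and 8.27 and 8.17 in SC+ (-1.46 ± 0.35, adjusted p = 0.0794), while its other probe set differed by -0.24 and was not called. *Musk*, the kinase that clusters the receptor, read 10.41 and 9.52 in SC- and 11.03 and 10.12 in SC+ and overlapped between the groups, with differences of -1.06 (called) without SC- replicate 1 and -1.07 (called) without SC+ replicate 2. Calls were lost without SC- replicate 2 for *Chrna1* (-0.92), *Chrnd* (-1.07) and *Chrng* (-0.89, with -2.74 without SC- replicate 1) and without SC+ replicate 1 for *Chrna1* (-1.43), *Chrnd* (-0.96) and *Chrne* (-0.65), which left 3 of the 13 each time. *Chrne* was also lost without SC- replicate 1 (-0.53) and, with *Chrna1* (-1.59), without SC+ replicate 2 (-0.77).

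The receptor genes are classic targets of the MyoD family, which binds the E-box, a short palindrome. Its form CAGCTG was searched on both strands in the 250 bases before the RefSeq start of each gene (GRCm38.p6), and the sequences below show it in capitals in 30-base windows of the lower genes described above and of 3 that follow, on the strand of the gene. They are shown because they let the lower genes be compared with their promoters.
*Chrna1* (chr2:73580365-73580394, minus strand): tagctgtggagtCAGCTGgcttccaaggcc
*Chrng* (chr1:87205667-87205696, plus strand): gcagtggtcagaCAGCTGgtggggccagct
*Chrne* (chr11:70619315-70619344, minus strand): cacaggatggggCAGCTGcctcccccaccc
*Tnnt2* (chr1:135836165-135836194, plus strand): gctttatctgagCAGCTGgaggaccacatg
*Tnni1* (chr1:135799341-135799370, plus strand): gggaaggaggggCAGCTGgaggggcagcgg
*Ccdc141* (chr2:77170839-77170868, minus strand): gctatcagacatCAGCTGataggcaaagag
*Arpp21* (chr9:112217425-112217454, minus strand): tggtcagagctaCAGCTGtggcagaaggaa
*Mir1a-1hg* (chr2:180385459-180385488, plus strand): ccagcctcggccCAGCTGacatgctatttt
The capitals lay 38 bases before the start of *Chrna1*, 126 before that of *Chrng* and 132 before that of *Chrne*. Of the 10 receptor and denervation genes with a window 4 held it, 3 of them among the 5 lower ones. Among the lower genes of other lists it was held by 0 of 5 satellite cell markers, 0 of 4 myogenic regulators, 1 of 6 embryonic and cardiac sarcomere genes, 1 of 5 slow fibre genes, 2 of 6 fast fibre genes and 2 of 16 respiratory chain subunits, and it was held by 6 of all 12 fast fibre genes with a window. Over all 27025 genes with a window the share was 14.7%, over the tested genes 14.1%, over the 913 lower genes with a window 19.9% and over the 959 higher ones 13%. A match of these letters is a description and no binding site. The windows of *Chrnb1*, *Myog*, *Myf5* and *Myh3* did not hold them.

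The gene with the lowest p was *Atp1b4*, a relative of the sodium pump beta subunits that in mammals sits in the nuclear membrane of muscle. It read 8.02 and 8.52 in SC- and 11.74 and 11.003 in SC+, and SC+ had 8.6-fold the SC- level (-3.10 ± 0.27, adjusted p = 1.75e-05). In SC+ muscle it went from 8.86 and 8.84 in sham to 9.62 and 9.38 at day 5 and its day 7 level, a step of 1.88 from day 5 (adjusted p = 0.0159). In SC- muscle it was at 8.05 and 7.91 in sham and 8.23 and 8.30 at day 5, a step of 0.01. The day 7 difference departed from the day 5 one by -1.87 (called, adjusted p = 0.715).

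Other lower genes with an adjusted p under 0.05 differed in how SC+ muscle had changed by day 5 of MOV. *Ccdc141* and *Trp63* had risen there, *Mir1a-1hg* had fallen, and *Npnt*, *Tecrl*, *Arpp21*, *Dag1*, *Lmod3*, *Popdc2*, *Reep1* and *Aamdc* did not pass. *Npnt*, nephronectin, a matrix ligand of integrins, read 7.61 and 6.74 in SC- and 10.06 and 9.53 in SC+ (-2.62 ± 0.36, adjusted p = 0.00838), with SC+ 2.04 and SC- 0.55 from their shams. *Ccdc141* read 6.500 and 6.43 in SC- and 8.72 and 8.80 in SC+ (-2.29 ± 0.37) and *Tecrl*, an enzyme of the muscle reticulum, 6.05 and 5.54 in SC- and 7.14 and 7.46 in SC+ (-1.51 ± 0.23). *Arpp21* read 8.23 and 7.11 in SC- and 10.27 and 9.59 in SC+ (-2.26 ± 0.38) and *Trp63*, of the p53 family, 8.93 and 9.18 in SC- and 11.71 and 10.91 in SC+ (-2.26 ± 0.41). *Trp63* stood 2.07 from sham in SC+ and -0.88 in SC-. The named genes *Tceal7* and *Lrrn1*, which missed adjustment, differed by -2.30 and -2.30.

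*Dag1*, which encodes dystroglycan, the link from the fibre to its basement membrane, read 11.74 and 11.91 in SC- and 13.34 and 13.13 in SC+ (-1.41 ± 0.21, adjusted p = 0.0109). From sham it differed by -0.07 in SC+ and by -1.43 in SC-, and the departure of the day 7 from the sham difference was -1.36 (called, adjusted p = 0.207), or -1.33 (called) without SC+ sham replicate 2. *Lmod3*, leiomodin 3, which starts thin filaments, read 10.83 and 10.55 in SC- and 12.57 and 12.53 in SC+ (-1.86 ± 0.30, adjusted p = 0.0127), with -0.41 from sham in SC+ and -2.40 in SC-. *Popdc2*, a membrane protein that binds cyclic AMP, read 10.21 and 10.84 in SC- and 12.31 and 12.48 in SC+ (-1.87 ± 0.31). *Reep1*, which shapes the reticulum, and *Aamdc* differed by -1.53 and -1.66. *Mir1a-1hg*, the host transcript of a miR-1 hairpin, read 7.89 and 8.49 in SC- and 9.90 and 9.97 in SC+ (-1.74 ± 0.30, adjusted p = 0.0164), and it was under sham by -1.75 in SC+ and by -3.66 in SC-.

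A further 5 structural and signalling genes among the 56 were named after their values were seen. *Tmod1*, which caps thin filaments, differed by -1.40 ± 0.25, and *Unc45b*, the chaperone that folds myosin, by -1.52 ± 0.28. *Sspn*, a partner of dystroglycan in the membrane, differed by -1.12 ± 0.23. *Camk2b*, a calcium-dependent kinase, differed by -1.55 ± 0.32, and *Slc25a12*, the mitochondrial aspartate and glutamate carrier, by -1.46 ± 0.30. Of the 43 lower genes 9 had risen and 11 had fallen in SC+ muscle by day 5 of MOV, against 11.4% and 7.96% of all genes. All 43 had the same sign at day 5 and 41 were called lower there, against 4.73% of all genes. With both SC+ sham arrays 10 were called lower in sham, against 3.02% of all genes. Fewer were without SC+ sham replicate 2, as given below. *Fndc5*, the precursor of irisin, a peptide secreted by muscle, was among the 43 at 8.16 and 8.03 in SC- and 9.15 and 9.44 in SC+ (-1.20 ± 0.25, adjusted p = 0.0487).

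Genes of mitochondrial energy metabolism were lower in SC- muscle, with 0 of both lists higher. Of 25 subunits of the respiratory chain and ATP synthase 23 (92%) were lower, with a median of -0.87, and of 24 genes of the tricarboxylic acid cycle and fatty acid oxidation 17 (70.8%) were lower, with a median of -0.93. None of these genes passed adjustment. *Cox6a2*, the muscle form of a cytochrome oxidase subunit, read 15.42 and 16.20 in SC- and 17.07 and 17.01 in SC+ (-1.23 ± 0.27, adjusted p = 0.0579). *Uqcrfs1*, the Rieske protein of complex III, read 10.24 and 10.42 in SC- and 11.62 and 11.41 in SC+ (-1.19 ± 0.28), and *Ndufs1*, of complex I, 11.94 and 12.17 in SC- and 13.52 and 12.96 in SC+ (-1.18 ± 0.36). In the cycle *Ogdh*, of the oxoglutarate dehydrogenase complex, read 13.19 and 13.36 in SC- and 14.48 and 14.38 in SC+ (-1.15 ± 0.26), *Cs*, citrate synthase, 13.67 and 14.02 in SC- and 14.95 and 14.66 in SC+ (-0.96 ± 0.27), and *Dlat*, of the pyruvate dehydrogenase complex, differed by -1.23. The mean level of the 25 subunits was 12.33 and 12.57 in SC-, 13.46 and 13.12 in SC+ and 14.19 to 15.06 on the 4 sham arrays. Both groups were thus below sham at day 7, SC- further. Without SC- replicate 1, 9 of the 25 and 11 of the 24 were called, and without SC+ replicate 1, 8 and 9, with *Ndufs1* at -0.90 (not called), while the direction of the medians stayed.

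Glycolytic genes of muscle were lower in part, with 5 of 18 lower and 1 higher. *Pfkm*, the muscle phosphofructokinase, read 15.07 and 15.46 in SC- and 16.37 and 16.07 in SC+ (-0.96 ± 0.28, adjusted p = 0.143). *Pgam2*, the muscle form of phosphoglycerate mutase, read 13.60 and 14.03 in SC- and 15.38 and 14.69 in SC+ (-1.22 ± 0.35), while *Pgam1*, the form of most other tissues, read 8.89 and 8.51 in SC- and 7.31 and 7.83 in SC+ (1.13 ± 0.34), the opposite direction. *Eno3* and *Tpi1*, 2 more enzymes of the pathway, and *Slc2a4*, the insulin-responsive glucose transporter, differed by -0.99, -1.17 and -0.94. *Slc2a1* and *Hk2*, a general glucose transporter and hexokinase 2, overlapped between the groups, *Hk2* with -1.12 (called) without SC+ replicate 2. Without SC+ replicate 1, 2 of the 18 were called lower and none higher, with *Pgam2* at -0.87, *Pgam1* at 0.87, *Eno3* at -0.71 and *Slc2a4* at -0.74, none of them called. When SC- replicate 1 was left out *Tpi1* (-0.84) and *Slc2a4* (-0.66) were not called, and 3 were called lower.

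A part of the myeloid genes was higher in SC- muscle, and no lymphocyte marker was called. In whole muscle fewer cells of a type and less RNA per cell cannot be told apart, which holds for every list here. Of 19 macrophage markers 6 were called higher and none lower, 18 had a positive difference, and the median was 1.03. Their mean level was 11.02 and 10.54 on the SC- arrays and 9.63 and 10.003 on the SC+ arrays, against 6.70 to 8.70 on the 4 sham arrays. Over the 4 day 7 arrays 2 of the 19 had a mean under 6. These levels moved with the lower fibre and mitochondrial genes above, SC- replicate 1 being the array with the highest macrophage mean and the lowest mean of the fast fibre genes (16.79, against 17.43, 17.83 and 17.74). Their part in those results was not tested. Of the 10 lymphocyte markers 8 were dim. The count of 6 was 3 with an intensity trend and robust moderation, 4 with dim genes left out, 4 with the replicate number as a block, 14 when only the 4 day 7 arrays were fitted, and 2 without SC- replicate 1.

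*Itgam*, the integrin chain CD11b of macrophages and neutrophils, read 11.72 and 11.40 in SC- and 8.93 and 9.71 in SC+ (2.24 ± 0.54, adjusted p = 0.0782). In SC+ muscle it had come down from 12.83 and 13.44 on day 3 through 11.35 and 11.38 on day 5. In SC- muscle it had read 13.56 and 12.53 and 13.07 and 12.52 on those days. Between days 5 and 7 it differed by -2.04 (called, adjusted p = 0.496) in SC+ and by -1.23 (called, adjusted p = 0.607) in SC-, and SC- was at the higher level on both days. *Trem2*, a lipid receptor of macrophages, read 9.19 and 9.45 in SC- and 7.97 and 8.43 in SC+ (1.12 ± 0.34). The 13 of the 19 markers that did not pass included *Adgre1* (0.62), *Mrc1* (1.21), *Cx3cr1* (0.07) and *Cd163* (-0.17). *Fcer1g*, *Clec4d*, *Pf4* and *Hmox1* were not in the macrophage list. *Fcer1g*, the common chain of Fc receptors, read 11.67 and 11.31 in SC- and 9.14 and 9.55 in SC+ (2.14 ± 0.73). *Clec4d*, a lectin of myeloid cells, read 10.93 and 10.51 in SC- and 7.81 and 9.26 in SC+ (2.18 ± 0.49, adjusted p = 0.06). *Pf4*, a chemokine of platelets and macrophages, read 12.46 and 12.23 in SC- and 9.15 and 10.26 in SC+ (2.64 ± 0.51, adjusted p = 0.0312). *Hmox1*, the haem-degrading enzyme of macrophages that clear red cells, read 14.35 and 14.36 in SC- and 11.33 and 12.42 in SC+ (2.48 ± 0.63, adjusted p = 0.0956). The calls of *Csf1r*, the receptor on which macrophages depend (1.27), *Gpnmb* (1.09), *Fcgr1* (1.43) and *Arg1* (1.43) were lost without SC- replicate 1 (0.74, 0.88, 0.94 and 1.56) or SC+ replicate 1 (1.07, 1.08, 1.13 and 0.32), leaving 2 and 3 of the 19. Without SC+ replicate 2 *Csf1r* (1.46) and *Gpnmb* (1.10) were lost, and without SC- replicate 2 *Arg1* (1.29), which differed by 2.53 (called) without SC+ replicate 2. *Csf1*, the ligand of that receptor, was named after its value was seen and read 12.35 and 11.99 in SC- and 10.79 and 10.34 in SC+ (1.61 ± 0.30, adjusted p = 0.0249).

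The largest positive difference was that of *Mmp9*, gelatinase B, a matrix protease that neutrophils store in granules. It read 11.59 and 9.89 in SC- and 6.27 and 8.47 in SC+, so the 2 SC+ arrays were themselves far apart and both below SC- (3.37 ± 0.52, adjusted p = 0.0117). In SC- muscle it went from 7.64 and 7.28 at day 5 to its day 7 level, a step of 3.28 (adjusted p = 0.0268), and in SC+ muscle the step was 0.66. Of 10 neutrophil markers 5 were higher and 1 lower, with a median of 0.87, and 4 had a mean under 6 over the 4 day 7 arrays. That median was 0.14 without SC+ replicate 1 and 1.82 without SC+ replicate 2. *Csf3r*, the receptor of granulocyte colony-stimulating factor, read 9.80 and 9.35 in SC- and 7.59 and 7.79 in SC+ (1.89 ± 0.36, adjusted p = 0.03), and *Cxcr2*, the chemokine receptor that draws neutrophils, 8.79 and 8.52 in SC- and 6.66 and 7.56 in SC+ (1.55 ± 0.38, adjusted p = 0.0818). The other markers did not all go the same way, and *Retnlg* (0.56), *Mmp8* (0.20), *Camp* (-0.12) and *Ltf* (-0.27) were not called. *S100a8* and *S100a9*, which encode calprotectin, differed by 1.37 and 1.18, and *Ngp*, a granule protein of young neutrophils, by -1.505, read as 4.58 and 4.04 in SC- and 6.93 and 4.70 in SC+. Without SC+ replicate 1, which was low for *S100a9* and high for *Ngp*, these 3 lost their calls (0.99, 0.18 and -0.39), and 3 of 10 were called higher and none lower. Without SC- replicate 1 *S100a8* (1.04) and *S100a9* (1.23) were lost, and without SC- replicate 2 *S100a9* (1.12) and *Ngp* (-1.23). Without SC+ replicate 2 *S100a9* differed by 2.17 (called) and *Ngp* by -2.61 (called).

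Among 18 chemokines and receptors 8 were higher and 1 lower, with a median of 0.88. *Ccl2*, which recruits monocytes, read 10.34 and 9.55 in SC- and 8.10 and 8.31 in SC+ (1.74 ± 0.41, adjusted p = 0.0738), and *Cxcl12*, a chemokine of stromal cells, 14.98 and 14.74 in SC- and 13.42 and 13.72 in SC+ (1.29 ± 0.40, adjusted p = 0.164). *Ccl7*, *Ccl9* and *Cxcl5* differed by 1.28, 1.99 and 2.00. The lower one was *Ccl11*, eotaxin, at 8.89 and 9.61 in SC- and 10.003 and 9.75 in SC+ (-0.63 ± 0.29), named after its value was seen, and no setting that left out 1 pool other than SC- replicate 2 kept its call (-0.27 without SC- replicate 1, -0.51 and -0.76 without SC+ replicates 1 and 2, -0.99 without SC- replicate 2). When SC- replicate 1 was left out 3 chemokine genes were called higher and the list median was 0.47, with *Ccl7* at 0.44 (not called) and *Ccl9* at 1.41 (not called), and *Ccl7* at 2.13 (called) without SC- replicate 2. Without SC+ replicate 1, 3 were called, with *Ccl9* at 1.33 (not called) and *Cxcl5* at 1.11 (not called).

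**Figure D3:**
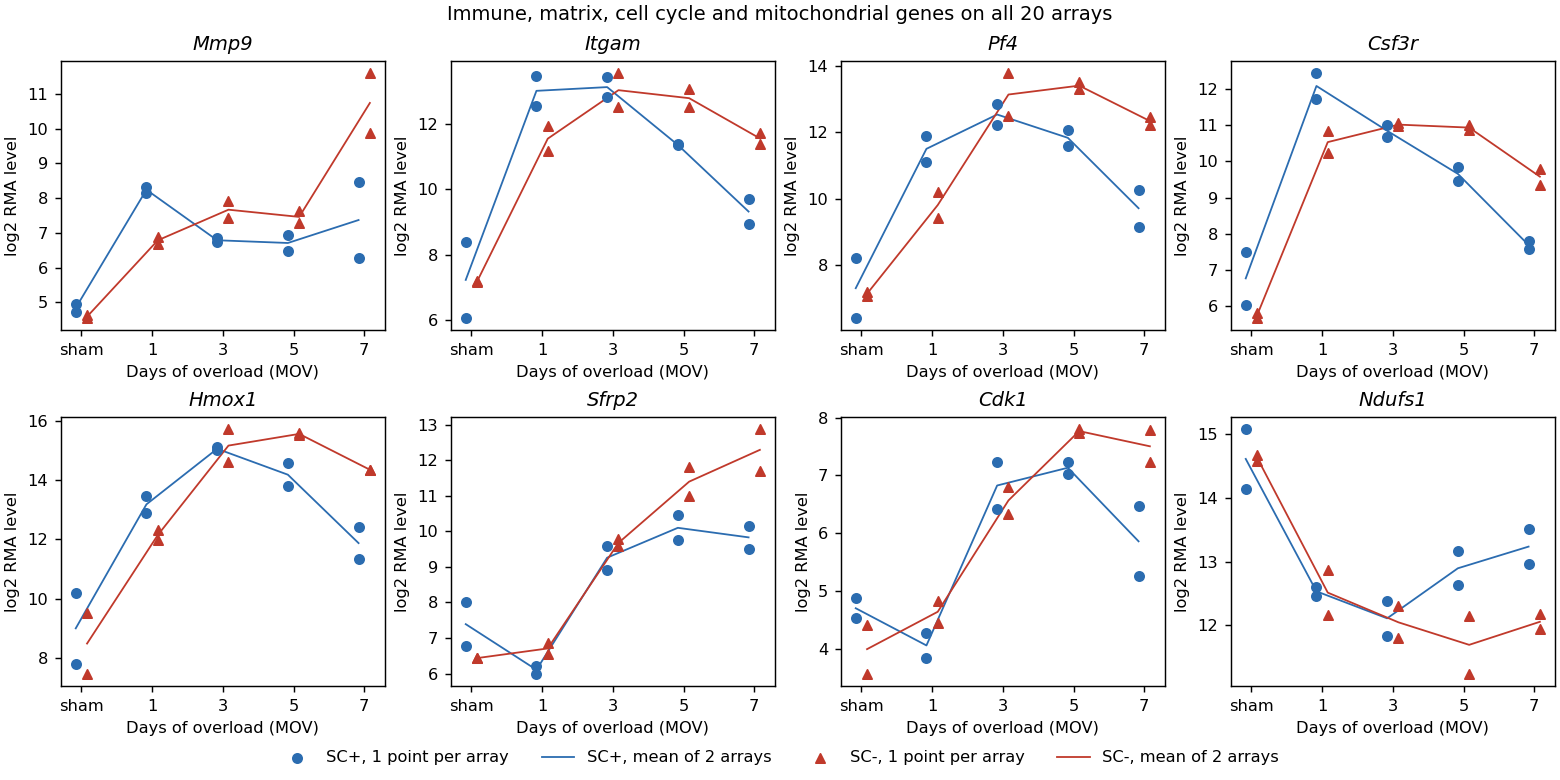
Log2 RMA level on all 20 arrays against days of MOV for 8 genes of leukocytes, matrix, cell division and mitochondria; points are single arrays, lines join the group means, and colours separate SC- from SC+. *Itgam* reads 11.72 and 11.40 in SC- and 8.93 and 9.71 in SC+ at day 7, and *Ndufs1* is the one panel in which SC- is the lower group.

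Genes of cell division were higher in SC- muscle. Of 31 genes 16 were higher and none lower, with a median of 0.76. *Cdk1*, the kinase that drives mitosis, read 7.78 and 7.23 in SC- and 5.26 and 6.46 in SC+ (1.64 ± 0.38, adjusted p = 0.0631), or 1.04 (called) without SC+ replicate 1. Between days 5 and 7 it differed by -1.27 (called, adjusted p = 0.644) in SC+ and by -0.26 (not called, adjusted p = 0.927) in SC-. *Ccnb2*, a mitotic cyclin, read 9.49 and 9.09 in SC- and 7.55 and 8.23 in SC+ (1.39 ± 0.37, adjusted p = 0.111), and *Birc5*, survivin, 7.97 and 8.41 in SC- and 6.90 and 7.48 in SC+ (0.996 ± 0.28). *Top2a*, *Pcna* and *Mcm5*, of DNA replication, differed by 0.95, 0.83 and 0.94. The list counted 9 of 31 without SC- replicate 1, with *Pcna* at 0.66 (not called), and 8 without SC+ replicate 1, with *Top2a* at 0.68 (not called) and *Mcm5* at 0.55 (not called). The mean level of the list was 8.59 and 8.34 in SC- and 7.41 and 7.94 in SC+, and that of the macrophage markers was ordered the same way over the 4 arrays. Which cells carried these transcripts was not tested.

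Most connective tissue genes were not called. Of 29 collagens and matrix proteins 28 had a positive difference, with a median of 0.48, against -0.0059 over all genes. Of the 29, 5 (17.2%) were called higher and none lower, against 6.2% and 5.91% of all genes. *Thbs1*, thrombospondin 1, read 15.08 and 14.17 in SC- and 12.95 and 13.31 in SC+ (1.495 ± 0.39, adjusted p = 0.1). *Timp1*, an inhibitor of matrix proteases, *Loxl3*, a crosslinking enzyme, and *Col11a1*, a fibrillar collagen chain, differed by 1.66, 1.33 and 1.24. Outside the list *Sfrp2*, a secreted antagonist of Wnt, read 12.87 and 11.70 in SC- and 9.51 and 10.15 in SC+ (2.46 ± 0.42, adjusted p = 0.0164). It had been -0.95 in sham, and the departure from sham was 3.41 (called, adjusted p = 0.111), or 2.79 (called) without SC+ sham replicate 2. *Sfrp1*, its relative, read 11.83 and 10.25 in SC- and 8.63 and 9.53 in SC+ (1.96 ± 0.67), and *Tnn*, tenascin W, 12.39 and 11.59 in SC- and 9.20 and 10.77 in SC+ (2.01 ± 0.57). *Adamtsl3*, a matrix protein related to the ADAMTS proteases, read 10.90 and 10.70 in SC- and 8.79 and 9.22 in SC+ (1.79 ± 0.27, adjusted p = 0.0109). *Ltbp2*, a microfibril protein, read 7.46 and 6.86 in SC- and 5.12 and 5.84 in SC+ (1.68 ± 0.42, adjusted p = 0.087), and *Nt5dc2* 12.32 and 11.72 in SC- and 9.45 and 10.60 in SC+ (1.99 ± 0.49). Without SC+ replicate 1 *Tnn* (1.22), *Timp1* (1.33), *Loxl3* (0.70), *Col11a1* (0.56) and *Sfrp1* (1.51) were not called, which left 2 of the 29. When SC- replicate 1 was left out *Timp1* (1.63) and *Sfrp1* (1.17) and without SC- replicate 2 *Timp1* (1.70) and *Loxl3* (1.30) were lost, and 3 of 29 were called in either case. *Col11a1* differed by 1.91 (called) without SC+ replicate 2.

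Of the other cells of the muscle bed, endothelial markers were higher for 4 of 12 and lower for none, with a median of 0.44. Fibro-adipogenic progenitor markers were higher for 1 (7.69%) and lower for 1 of 13, near the 6.2% and 5.91% of all genes. *Plvap*, of the diaphragms of endothelial pores, was in no list, and read 9.45 and 9.20 in SC- and 7.55 and 7.32 in SC+ (1.89 ± 0.32, adjusted p = 0.0164). *Pecam1*, *Cdh5* and *Eng*, adhesion molecules and a co-receptor of endothelium, differed by 0.72, 0.63 and 0.88. Leaving out SC- replicate 1 (*Pecam1* 0.44 and *Cdh5* 0.29) or SC+ replicate 2 (*Pecam1* 0.47 and *Cdh5* 0.70) left 1 of the 12 called, and leaving out SC+ replicate 1 (*Cdh5* 0.55 and *Eng* 0.61) left 2; without SC- replicate 2 *Cdh5* differed by 0.96 (called). *Sox9*, the transcription factor of cartilage and tendon progenitors, read 9.77 and 9.17 in SC- and 8.40 and 8.51 in SC+ (1.02 ± 0.29, adjusted p = 0.129), the reverse of its sham difference of -1.22 (called, adjusted p = 0.668), which was -1.05 (called) without SC+ sham replicate 2. *Pik3r5*, a regulatory subunit of leukocyte PI3-kinase, and *Crabp1*, a retinoic acid binding protein of dim level, passed adjustment with 1.65 ± 0.27 and 1.61 ± 0.25. *Notch2*, a receptor of the Notch pathway, read 9.26 and 8.99 in SC- and 8.10 and 8.28 in SC+ (0.94 ± 0.29, adjusted p = 0.174). It and 1 other of 11 Notch genes (18.2%) were higher and 1 (9.09%) lower, against 6.2% and 5.91% of all genes. *Abcc9*, a potassium channel subunit of pericytes and also of muscle fibres, read 10.78 and 11.45 in SC- and 12.39 and 12.19 in SC+ (-1.18 ± 0.32, adjusted p = 0.119). Pericyte and smooth muscle markers had 3 of 12 higher and 2 lower. None of 8 adipocyte, 14 circadian clock and 2 erythroid genes (9 were listed) was called, although 1 erythroid gene, *Alas2*, was when only the 4 day 7 arrays were fitted, and 1 or 2 clock genes were lower without an SC- array.

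The study followed glucose into the pentose phosphate pathway, serine and folate metabolism and the glutathione system, which make and use NADPH. At day 7, 3 of 22 pentose phosphate and NADPH genes (13.6%) were higher in SC- and 1 (4.55%) lower, with a median of 0.05. Over all genes the shares were 6.2% and 5.91%. None of the 22 was called without SC+ replicate 1. *Pgd*, the second NADPH-producing enzyme of the pathway, read 9.56 and 9.31 in SC- and 9.08 and 8.96 in SC+ (0.41 ± 0.29, adjusted p = 0.629). *Taldo1*, transaldolase, read 7.09 and 6.55 in SC- and 6.40 and 6.55 in SC+ (0.34 ± 0.31, adjusted p = 0.737). *G6pdx* and *Tkt* were not analysed here. Of the folate and serine genes *Mthfd2*, a mitochondrial folate enzyme, read 7.71 and 7.51 in SC- and 6.74 and 7.08 in SC+ (0.71 ± 0.32, adjusted p = 0.375). *Sfxn1*, a mitochondrial serine carrier, read 9.37 and 9.18 in SC- and 8.03 and 8.45 in SC+ (1.04 ± 0.28, adjusted p = 0.111), and *Slc38a10*, an amino acid transporter, 13.67 and 14.29 in SC- and 12.59 and 13.12 in SC+ (1.13 ± 0.35). *Phgdh*, the first enzyme of serine synthesis, overlapped between the groups at 7.28 and 7.47 in SC- and 7.06 and 7.36 in SC+. In the list of 13 polyamine and serine synthesis genes 2 were higher and 1 lower, with a median of 0.16. The call of *Mthfd2* was lost without any of SC- replicate 1 (0.61), SC- replicate 2 (0.81) and SC+ replicate 1 (0.53), and that of *Slc38a10* without SC- replicate 2 (0.82) or SC+ replicate 1 (0.87).

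Of 22 genes of the glutathione and thioredoxin systems and targets of NRF2 6 were higher and none lower, with a median of 0.48, or 5 higher, 1 lower and a median of 0.16 without SC+ replicate 2. *Hmox1*, described above, was the largest of them. *Gsr*, which regenerates glutathione with NADPH, read 11.15 and 11.06 in SC- and 9.71 and 10.93 in SC+ (0.78 ± 0.36, adjusted p = 0.392), the SC+ replicate 2 level being close to SC-. *Gpx1*, which spends glutathione on peroxides, read 14.10 and 13.72 in SC- and 13.22 and 12.91 in SC+ (0.85 ± 0.36, adjusted p = 0.342). *Txn1*, thioredoxin, *Slc7a11*, the cystine importer, and *Sod3*, extracellular superoxide dismutase, differed by 0.79, 1.06 and 1.26. When SC+ replicate 1 was left out *Gsr* (0.17), *Txn1* (0.51), *Slc7a11* (0.86) and *Sod3* (0.99) were not called, and without SC- replicate 1 *Gsr* (0.74), *Gpx1* (0.66) and *Txn1* (0.72), which left 3 of the 22 each time. *Gsr* was also lost without SC- replicate 2 (0.83) and differed by 1.40 (called) without SC+ replicate 2, where *Gpx1* had 0.70 (not called). The macrophage markers were higher in the same group, at the levels given above, and their part was not tested.

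**Figure D4:**
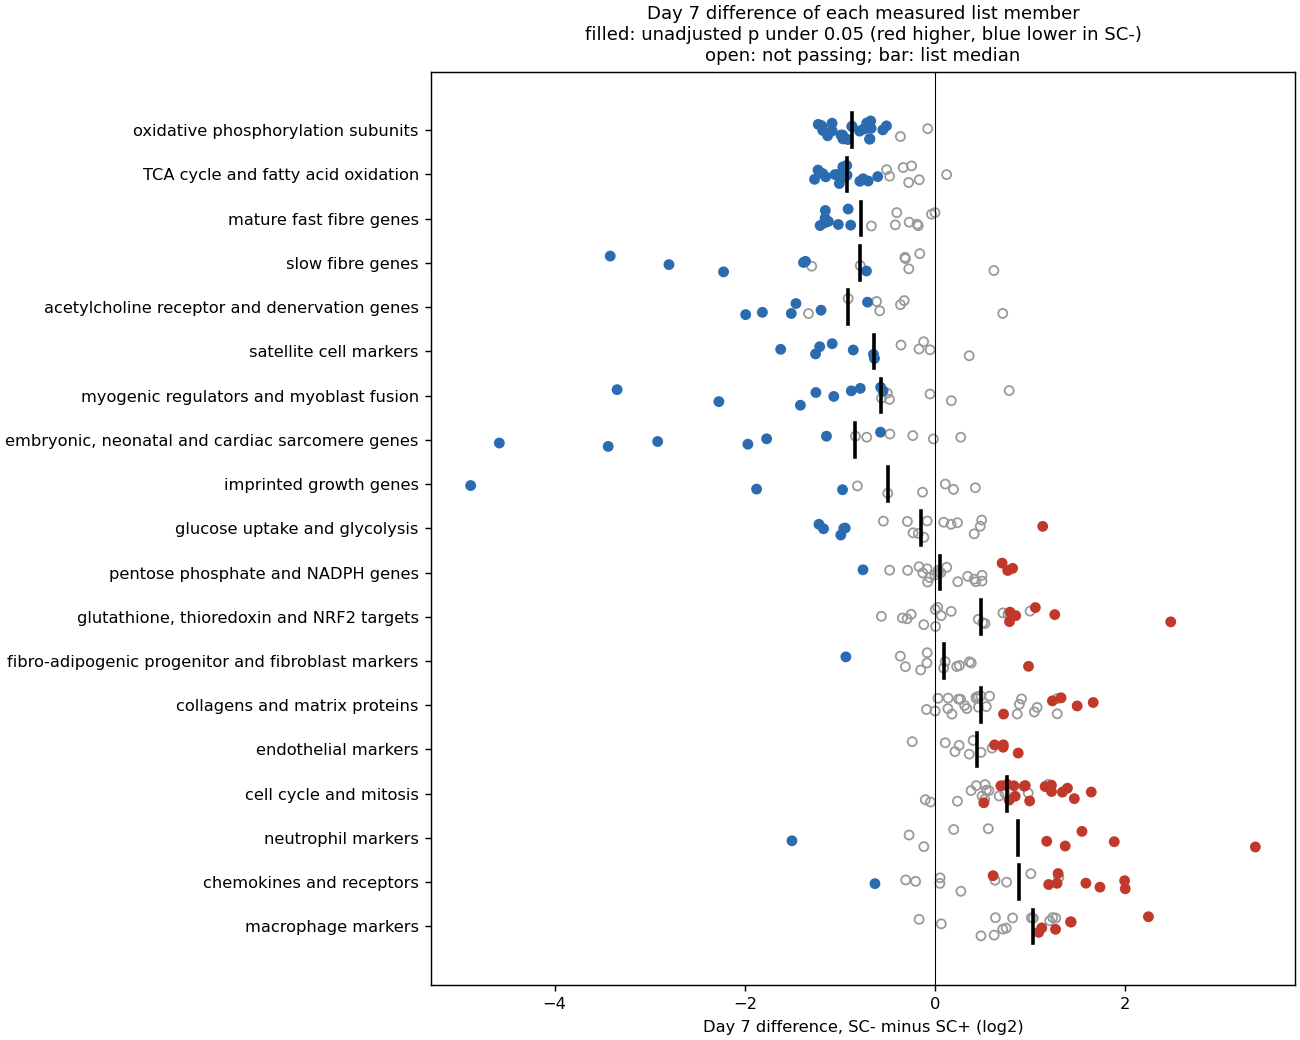
Day 7 difference (SC- minus SC+, log2) of every measured member of the gene lists, 1 point a gene; filled points are called at an unadjusted p under 0.05, red higher and blue lower in SC-, open points are not, and the bar is the list median. The respiratory chain list has 23 of its 25 members filled on the lower side, and the cell cycle list 16 of 31 on the higher side.

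Several lists had few calls. Ribosome biogenesis had 1 of 16 higher and 1 lower, interferon-stimulated genes 1 of 16 higher, the myostatin and TGF-beta axis 1 of 15 in each direction, and unfolded protein genes 2 of 14 higher, against 6.2% of all genes higher and 5.91% lower. *Mstn*, myostatin, the brake on muscle growth, read 8.39 and 8.99 in SC- and 9.84 and 9.45 in SC+ (-0.95 ± 0.34, adjusted p = 0.241), and its call was lost without SC- replicate 1 (-0.65) or SC+ replicate 1 (-0.76). Of 13 atrophy and autophagy genes 2 were higher and 1 lower. *Map1lc3a*, of the autophagosome coat, read 9.64 and 9.06 in SC- and 11.47 and 10.32 in SC+ (-1.54 ± 0.32, adjusted p = 0.0518), or -0.96 (called) without SC+ replicate 1, and *Ctsl*, the lysosomal protease cathepsin L, differed by 1.47 ± 0.59 and was not called without SC- replicate 1 (1.28) or SC+ replicate 1 (1.23).

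The day 7 differences were set beside those of the other days, which come from separate arrays. At day 5, 872 genes (4.47%) were higher and 923 (4.73%) lower in SC-, with 0 and 1 after adjustment, and in sham muscle 498 (2.55%) and 590 (3.02%), with none after adjustment. Of the 1209 genes higher at day 7, 83.3% had a positive difference at day 5 and 276 (22.8%) were called higher there, which is 31.7% of the day 5 list. Of the 1152 lower, 85.3% were negative at day 5 and 358 (31.1%) were called lower, 38.8% of the day 5 list. In sham muscle, 24 of the 1209 were called higher and 45 lower, and 31 of the 1152 higher and 49 lower. Without SC+ sham replicate 2, 653 (3.35%) of all genes were called higher and 610 (3.13%) lower in sham, and of the 1209 genes 102 (8.44%) higher and 15 (1.24%) lower, and of the 1152 genes 32 and 42. Of the 43 genes lower after adjustment 10 (23.3%) were called lower and 1 higher in sham, or 4 (9.3%) and 0 without that array. Over the 19505 genes the day 7 difference correlated at r = 0.51 with that of day 5, -0.029 with day 3, -0.198 with day 1 and -0.0223 with sham (0.194 without SC+ sham replicate 2), values that describe genes which are not independent replicates.

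Tested directly, the day 7 difference departed from the sham difference in 870 genes upward (4.46%) and 941 downward (4.82%), none after adjustment (lowest adjusted p = 0.111), and in 604 and 657 without SC+ sham replicate 2. Day 7 departed from day 5 in 325 (1.67%) and 344 genes (1.76%), fewer than chance gives, and in none after adjustment. Without SC+ sham replicate 2 the counts against sham went from 9 to 1 of 25 lower for the respiratory chain, from 11 to 1 of 24 for the cycle and fatty acid list, from 16 to 5 of 31 higher for the cell cycle list and from 6 to 1 of 19 for macrophage markers. For collagens and matrix proteins they went from 0 to 5 of 29 lower, with 1 higher in both, and the median turned from 0.26 to -0.396.

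The day 7 calls were also set beside the overload response with satellite cells present. In SC+ muscle 2232 genes (11.4%) had risen and 1553 (7.96%) had fallen from sham to MOV day 5 at an adjusted p under 0.05, on arrays that the day 7 comparison did not use. Of the genes higher in SC- at day 7, 676 (55.9%) had risen and 13 (1.08%) had fallen. Of the genes lower in SC-, 77 (6.68%) had risen and 388 (33.7%) had fallen, and of those not called 8.63% and 6.72%. Without SC+ sham replicate 2 the shares were 54.3% and 0.579% of the higher genes and 6.6% and 33.8% of the lower ones, against 11% and 7.92% of all genes. The share of genes that had risen was therefore above that of all genes among the higher calls, and the share that had fallen was above it among the lower ones. The 77 genes that had risen with overload and were lower in SC- included *Myog*, *Myl4*, *Tnni1*, *Igf2*, *Peg3* and *Trp63*.

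**Figure D5:**
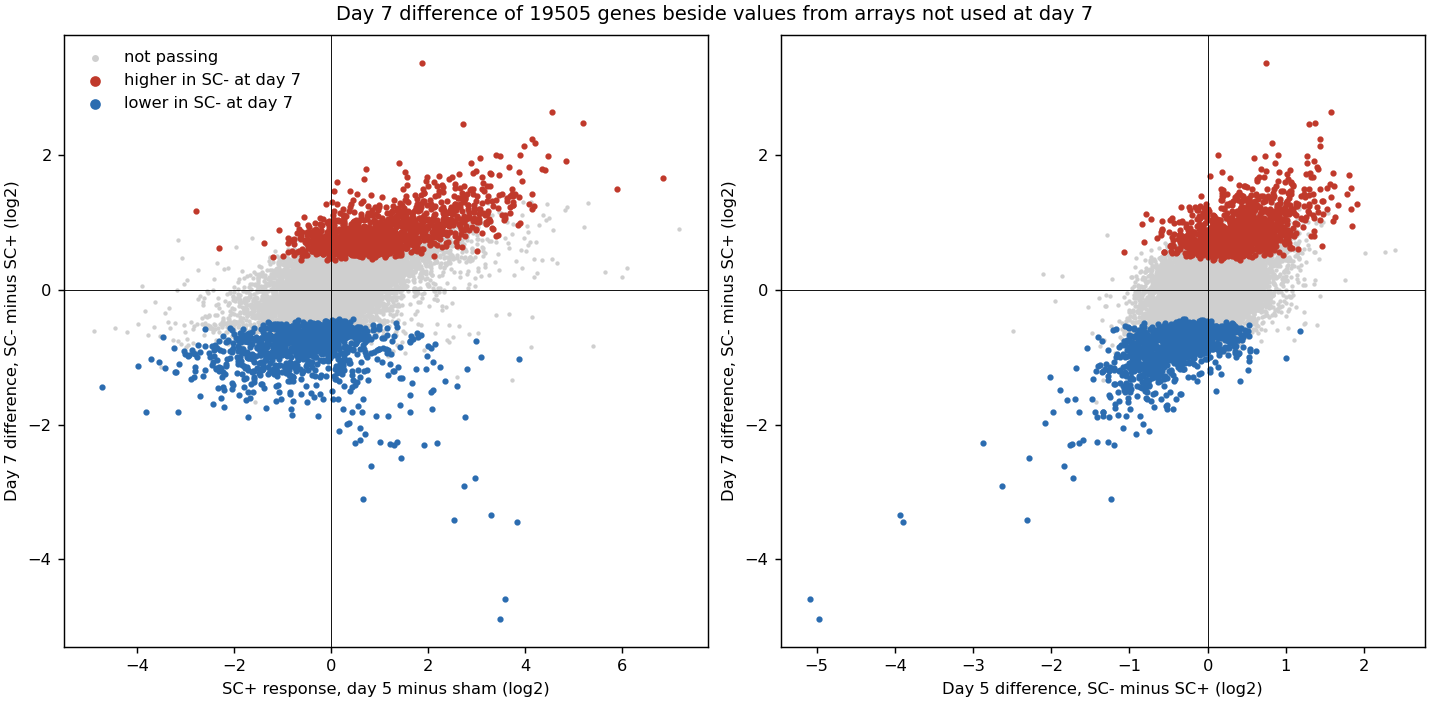
Day 7 difference (SC- minus SC+, log2, vertical) of 19505 genes against 2 quantities from arrays not used at day 7, the change of SC+ muscle from sham to MOV day 5 on the left and the day 5 difference on the right (both log2, horizontal); red and blue points are genes called higher and lower at day 7. On the right r is 0.51, and on the left 55.9% of the genes called higher had risen in SC+ at an adjusted p under 0.05.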

How the data were processed

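Levels in log2 units came from a single table that the authors deposited, with 28846 probe sets and 20 Affymetrix arrays, computed by RMA (background correction, quantile normalization, summary) per the submitters' processing notes. The program version is not given in the sources used here, and the array type is uncertain: the study's methods name a GeneChip Mouse Gene ST array, whose probe set IDs are plain numbers, while most of those in the table begin with TC. The values lay between 2.22 and 19.93 (array medians 6.5 to 6.57). Probe sets were named from the platform annotation. Where a gene had several (55 genes), the one with the highest mean was kept. A mean under 6 (8158 genes) was called dim. Groups were taken from the sample titles.

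All genes were fitted with limma 3.58.1 (R 4.3.3, statmod 1.5.0) with a mean for each of 10 groups (10 residual degrees of freedom, prior 8.16), and p-values were adjusted by Benjamini-Hochberg over 19505 genes. The number of arrays limits the precision. The fit was tested on simulated data.

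The 36 gene lists (535 of 582 genes measured) and the comparison were chosen with earlier results of these data known. Named genes were the 20 with the lowest p, the 12 largest differences in each direction, members of the lists (of lists over 13 members, the 8 with the lowest p), genes the study discussed and the 5 largest departures from sham and from day 5 in each direction. Replicate numbers did not pair the arrays (correlation of deviations -0.123 to 0.1). Alternatives were another normalization, a filter on dim genes, another moderation, other arrays and rows in the fit, and leaving out each array.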

Additional observations from a re-analysis of the deposited data

Results flagged for a closer look

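Genes were singled out where the day 7 difference departed from the difference in sham muscle or at day 5 in a test of that departure, at an unadjusted p under 0.05 and with both SC- arrays beyond both SC+ arrays at day 7. No group had enough arrays for a test of single outlying arrays. No departure passed adjustment.

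Against sham the largest upward departures were *Mmp9* (3.62), *Sfrp2* (3.41, adjusted p = 0.111), *Hmox1* (2.99), *Nt5dc2* (2.98) and *Csf3r* (2.91). The largest downward ones were *Tnni1* (-3.81), *Tceal7* (-2.98), *Trp63* (-2.94), *Eda2r*, a receptor of the TNF family (-2.66), and *Tnnt1* (-2.59). Without SC+ sham replicate 2 the departures were 3.73 (called) for *Mmp9*, -2.93 (called) for *Tceal7*, -2.67 (called) for *Tnnt1*, 1.80 (called) for *Hmox1*, 2.03 (called) for *Nt5dc2*, 2.19 (called) for *Csf3r*, -2.83 (called) for *Trp63* and -3.84 (called) for *Eda2r*. *Eda2r* read 10.80 and 11.02 in SC- and 12.38 and 12.30 in SC+ at day 7, and its day 7 call was lost without any 1 of the 4 arrays (-1.32 and -1.54 without SC- replicates 1 and 2, -1.39 and -1.47 without SC+ replicates 1 and 2).

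Against day 5 the largest upward departures were *Mmp9* (2.62), *H4c6*, a histone H4 gene of a near-identical family whose probes may not tell members apart (2.11), *Actg2* (1.91), *Tnn* (1.88) and *Cnn1* (1.78). The largest downward ones were *Atp1b4* (-1.87, adjusted p = 0.715), *Alas2*, the erythroid haem enzyme (-1.70), *Adamtsl5* (-1.60), *Tbxas1*, thromboxane synthase (-1.47), and *Tigd4* (-1.41). *Alas2* and *Tbxas1* had been higher in SC- at day 5, by 2.27 and 2.01, and did not pass at day 7 (0.56 ± 0.55 and 0.55 ± 0.43). *Actg2* and *Cnn1*, of smooth muscle, read 8.39 and 8.36 in SC- and 6.85 and 7.63 in SC+ and 8.57 and 8.63 in SC- and 7.08 and 8.02 in SC+ at day 7, and both calls were lost without SC+ replicate 1 (0.74 and 0.58), that of *Actg2* also without SC- replicate 1 (1.12) or 2 (1.15). *H4c6* did not pass at day 7 (9.30 and 8.95 in SC- and 8.01 and 8.59 in SC+, adjusted p = 0.414) but did without SC+ replicate 2 (1.11).

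Among the 9274 rows without a single gene symbol, which no comparison used, 4 passed an adjusted p of 0.05 at day 7, all 4 lower in SC-, with 401 higher and 350 lower at an unadjusted p under 0.05.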

How the results depend on the processing

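The alternatives were run on 161 of the named genes, and none of these that was called changed sign. Of those not called 4 did with 1 array left out: *Hk2* (0.03 without SC+ replicate 1), *Myh7* (0.24), *Myl2* (0.56) and *Slc2a1* (-0.04), the last 3 without SC- replicate 1. The counts of genes higher and lower at day 7 were between 634 and 1122 and between 728 and 1047 when 1 array was left out, and 1209 and 1152 with all. The count after adjustment moved most: 97 with dim genes left out, 108 with an intensity trend and robust moderation, 209 when only the 4 day 7 arrays were fitted, 11 with every row of the table and 1 to 45 with 1 array left out, against 56. The departures from the sham difference numbered 1246 to 2540 with 1 array left out, against 1811. Those from the day 5 difference, 669 in all, numbered 341 with dim genes left out, 1097 with every row and 563 to 1146 with 1 array left out. The cause of these shifts was not tested, except that leaving out an array also removes a degree of freedom. With the replicate number as a block the counts were 1216 higher, 1155 lower, 50 after adjustment, 1824 against sham and 679 against day 5. Of the 161 genes run under the alternatives 146 were called. The block took 3 of them below the threshold, quantile normalization 5, the trend 11 and the filter 3. Leaving out SC- replicate 1 took 35, SC- replicate 2 24, SC+ replicate 1 49 and SC+ replicate 2 13. Results without SC+ sham replicate 2 were added after seeing the data. Of 55 genes with several probe sets, 7 had at least 1 called set, and 1 had called sets of opposite sign. The 8158 dim genes lay near background, where arrays give little signal to compare.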

Other observations

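Several genes outside the main groups were higher in SC- muscle at day 7. *Ddit4*, an inhibitor of mTORC1 that responds to stress, read 6.54 and 6.65 in SC- and 5.47 and 5.63 in SC+ (1.04 ± 0.22, adjusted p = 0.0539), and leaving out any 1 array kept its call. *Ier3*, an immediate early gene, read 9.03 and 9.15 in SC- and 7.96 and 7.91 in SC+ (1.16 ± 0.43, adjusted p = 0.269), with 1.10 (not called) without SC- replicate 2 and 1.13 (not called) without SC+ replicate 2. Of 16 immediate early genes it and *Fosb* (0.75 ± 0.35) were called, 12.5% against 6.2% of all genes higher. *Fosb* was not called without SC+ replicate 1 (0.31) or SC- replicate 2 (0.55) and differed by 1.20 (called) without SC+ replicate 2. *Nr4a3* had the widest spread of them, with 8.91 and 7.06 in SC- and 10.85 and 8.45 in SC+. *Il6*, the cytokine that working muscle also secretes, read 8.40 and 6.42 in SC- and 6.07 and 5.49 in SC+ (1.62 ± 0.70, adjusted p = 0.352), or 0.64 (not called) without SC- replicate 1, 2.61 (called) without SC- replicate 2 and 1.33 (not called) without SC+ replicate 2.

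Of 12 tenocyte and cartilage markers 3 (25%) were higher and none lower, with a median of 0.46, against 6.2% of all genes higher. The 3 were *Comp*, *Acan* and *Sox9*, the last described above. The other 9 were not called, and for 3 of them both SC- arrays lay under both SC+ arrays. Of the 12 pericyte and smooth muscle markers 3 were called higher (*Tagln*, *Pdgfrb* and *Cnn1*) and 2 lower (*Abcc9*, -1.18, and *Higd1b*, -0.53). A negative difference was found for 7 of the 12, and the median was -0.04. *Comp* and *Acan*, cartilage matrix proteins, read 8.94 and 7.72 in SC- and 7.18 and 7.13 in SC+ (1.18 ± 0.35, adjusted p = 0.153) and 8.16 and 7.55 in SC- and 6.96 and 6.92 in SC+ (0.91 ± 0.30, adjusted p = 0.203). Both were at their highest on SC- replicate 1 and were not called without it (0.57 and 0.61), and *Comp* differed by 1.78 (called) without SC- replicate 2. *Tagln*, transgelin of smooth muscle and myofibroblasts, read 13.71 and 13.78 in SC- and 11.85 and 12.65 in SC+ (1.49 ± 0.52, adjusted p = 0.229), and *Pdgfrb*, a receptor of pericytes and fibroblasts, 11.63 and 11.63 in SC- and 10.20 and 11.01 in SC+ (1.03 ± 0.37, adjusted p = 0.247), or 1.09 (not called), and 0.62 (not called), without SC+ replicate 1. *Thy1*, a fibroblast surface protein, and *Pi16*, of resting fibroblasts of vessel walls, differed in opposite directions (0.98 ± 0.38 and -0.94 ± 0.38). Without SC+ replicate 1 they were at 0.97 and -0.72 (not called), without SC- replicate 2 at 0.99 and -0.83 (not called), and *Thy1* was at 0.98 (not called) without SC- replicate 1 and 0.999 (not called) without SC+ replicate 2.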
